A study of Rattus norvegicus with 32 samples.

Results

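Collagens are the triple-helical proteins of the extracellular matrix, and their genes were followed here across the intestinal mucosa of lean and obese Zucker rats. The members are the genes whose symbol has the form Col, a type number, the letter a and a chain number, taken from probe sets that the array annotation assigns to a single gene. This rule found 40 genes, measured by 43 probe sets, among 17245 genes with a probe set of their own and 29214 probe sets in all. Where a gene had more than 1 probe set (Col4a2, Col19a1 and Col24a1), the one with the highest mean level was used. All 40 symbols are unchanged in the current RefSeq annotation of the rat genome.

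RNA of the intestinal mucosa was measured on 32 Affymetrix rat gene arrays, 1 for each rat. All rats were male. Zucker-Lepr fa/fa rats (ZO) lack a working leptin receptor and become obese, and Zucker lean Lepr +/fa rats (ZL), which carry 1 copy of the same fa allele, served as the lean controls. Baseline rats were killed before the intervention (4 ZL and 4 ZO), placebo rats received a milk powder and sucrose placebo by mouth for 30 days (4 ZL and 4 ZO), and 16 ZO rats received a probiotic for 30 days. The labels give an age of 6 weeks to every rat, baseline and treated alike, so age and intervention cannot be told apart in the comparisons between baseline and later rats. The methods describe lactobacilli and a bifidobacterium given as single strains or as a mixture, but the labels of the 16 arrays do not name the strain, so these rats form 1 group. The spread of this group and the correlations over its rats can therefore include differences between strains, which were not tested. Values are levels on the log2 scale, on which a difference of 1 is a doubling, and p-values measure only the spread between these rats.

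Collagen chains assemble in threes, are hydroxylated and folded in the endoplasmic reticulum, secreted and then built into fibrils, networks or filaments. In the gut wall, fibroblasts and smooth muscle cells make most of the fibrillar collagens I, III and V and of collagen VI, which forms beaded filaments around cells, whereas collagen IV forms the network of basement membranes under the epithelium and around vessels. Because the arrays hold RNA of a whole tissue sample, fewer cells of a type and less RNA per cell cannot be told apart.

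Array medians lay between 4.79 and 4.97, and no 2 arrays correlated below a Pearson r of 0.979. Array weights estimated by limma, which are low where an array departs from its group, ran from 0.431 (Z46) and 0.463 (C13) to 1.87 (C15 and Z15). Markers of enterocytes, the absorptive cells of the epithelium, had a mean level between 12.23 and 12.67 in every rat.

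Promoters are shown for a pair of genes that share one, for the α2 chain of collagen I as a fibrillar partner, and for Col17a1, whose levels are described with the genotypes. RefSeq promoter windows, which run from 250 bases before to 50 bases after each gene's start in the GRCr8 build, were found for 33 of the 40 genes. The genes without a window were Col1a1, Col2a1, Col3a1, Col6a2, Col9a3, Col12a1 and Col14a1. Capitals mark the CCAAT box (CCAAT, or ATTGG on the opposite strand) and the TATA box (TATAAA, or TTTATA on the opposite strand).
Col4a1, chr16:84885347-84885646, plus strand: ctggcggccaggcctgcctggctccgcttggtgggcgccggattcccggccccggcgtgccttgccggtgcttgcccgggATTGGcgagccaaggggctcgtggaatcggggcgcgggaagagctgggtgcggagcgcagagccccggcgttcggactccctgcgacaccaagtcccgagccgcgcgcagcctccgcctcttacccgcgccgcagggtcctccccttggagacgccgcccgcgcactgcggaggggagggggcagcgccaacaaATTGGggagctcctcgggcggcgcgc
Col4a2, chr16:84885471-84885770, minus strand: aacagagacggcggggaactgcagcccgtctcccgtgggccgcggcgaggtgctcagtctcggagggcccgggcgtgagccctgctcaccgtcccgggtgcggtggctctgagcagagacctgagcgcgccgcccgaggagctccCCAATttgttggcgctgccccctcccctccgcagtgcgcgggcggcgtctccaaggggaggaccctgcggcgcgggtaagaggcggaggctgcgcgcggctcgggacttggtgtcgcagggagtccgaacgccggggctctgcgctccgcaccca
Col1a2, chr4:33518307-33518606, plus strand: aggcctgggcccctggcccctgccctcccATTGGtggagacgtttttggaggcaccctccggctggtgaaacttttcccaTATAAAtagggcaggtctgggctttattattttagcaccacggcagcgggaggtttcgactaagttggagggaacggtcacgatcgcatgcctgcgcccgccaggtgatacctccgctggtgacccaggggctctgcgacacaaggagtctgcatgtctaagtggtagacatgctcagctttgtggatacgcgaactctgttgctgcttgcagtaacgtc
Col17a1, chr1:256518808-256519107, minus strand: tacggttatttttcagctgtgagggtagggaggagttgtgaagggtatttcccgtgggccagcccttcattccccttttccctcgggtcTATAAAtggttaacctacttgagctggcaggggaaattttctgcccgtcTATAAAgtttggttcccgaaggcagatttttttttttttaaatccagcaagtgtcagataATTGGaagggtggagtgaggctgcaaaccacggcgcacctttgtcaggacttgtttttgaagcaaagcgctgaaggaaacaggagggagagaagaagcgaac

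Col4a1 and Col4a2, the α1 and α2 chains of the basement membrane network, lie head to head on chromosome 16 with 76 bases between them, so that their promoter windows share 176 bases. In this stretch 1 CCAAT match stands at the same place in both windows, read as ATTGG for Col4a1 and as CCAAT for Col4a2. Over all 27457 promoter windows, 37.7% held a CCAAT match on either strand, against 9 of the 33 collagen windows (27.3%). A TATA match was present in 14.3% of all windows and in 4 of the 33 collagen windows (12.1%). A match to GGGCGG or CCGCCC, the GC box, was present in 34.9% of all windows and in 18 of the 33 (54.5%). These matches are a description of the letters and no test was made of them.

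Collagen I, the main fibril of connective tissue, is built from Col1a1 and Col1a2. The level of Col1a1 was 5.99, 7.32, 7.41 and 6.19 in ZL baseline rats C1 to C4, and 6.48, 6.71, 7.69 and 7.52 in ZL placebo rats C11, C13, C15 and C16. In ZO rats it was 6.25, 7.21, 6.15 and 6.47 at baseline (Z1 to Z4) and 7.02, 6.52, 6.62 and 7.21 on placebo (Z11, Z13, Z15 and Z16). The 16 probiotic rats ran from 5.60 in Z46 through a median of 6.68 to 7.49 in Z57. Every group overlapped every other, and within ZL baseline rats alone C2 and C3 stood more than 1 log2 unit above C1 and C4. Col1a2 spread similarly, with group means of 6.37 ± 0.72 (SD, n = 4) in ZL baseline, 6.72 ± 0.44 (n = 4) in ZL placebo, 6.16 ± 0.42 (n = 4) in ZO baseline, 6.52 ± 0.29 (n = 4) in ZO placebo and 6.23 ± 0.37 (n = 16) in ZO probiotic rats.

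Collagen III, encoded by Col3a1, forms fibrils together with collagen I in distensible tissues. Its level in ZL rats was 5.32, 6.47, 6.79 and 5.45 at baseline and 5.92, 6.02, 6.91 and 6.74 on placebo. In ZO rats it was 5.58, 6.47, 5.35 and 5.78 at baseline and 6.23, 6.02, 5.78 and 6.30 on placebo, and the probiotic rats ran from 4.73 (Z46) through 5.87 to 6.54 (Z57). The rats that were high or low for Col1a1 were high or low here too. Col5a1 and Col5a2, chains of the collagen V that starts fibrils, had narrower spreads, with SDs within groups of 0.21 and 0.26 against 0.53 for Col1a1 and 0.47 for Col3a1.

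Most collagen VI genes had a wide spread between rats. Col6a1 was 5.99, 7.61, 8.07 and 6.22 in ZL baseline rats and 6.59, 7.16, 8.05 and 7.92 in ZL placebo rats. In ZO rats it was 6.30, 7.58, 6.04 and 6.56 at baseline and 7.20, 6.73, 6.88 and 7.54 on placebo, and the probiotic rats ran from 5.42 (Z46) through 6.79 to 7.54 (Z57). Again C2 and C3 at baseline, C15 and C16 on placebo and Z2 were the high rats of their groups. Col6a2 had SDs within groups of 0.55, Col6a3 of 0.54, Col6a4 of 0.74 and Col6a6 of 0.18. Col6a4 differed 10.1-fold between its lowest rat (5.16, Z46) and its highest (8.49, C15).

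The basement membrane chain Col4a1 was 4.87, 5.86, 5.79 and 4.98 in ZL baseline rats and 5.10, 5.44, 6.15 and 5.95 in ZL placebo rats. In ZO rats it was 5.25, 5.77, 5.00 and 5.20 at baseline and 5.66, 5.21, 5.35 and 5.61 on placebo, and the probiotic rats ran from 4.96 (Z26) through 5.37 to 5.86 (Z57). The groups overlapped throughout. Its neighbour Col4a2 had group means between 6.20 ± 0.42 (SD, n = 4, ZO baseline) and 6.73 ± 0.36 (n = 4, ZL placebo).

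**Figure D1:**
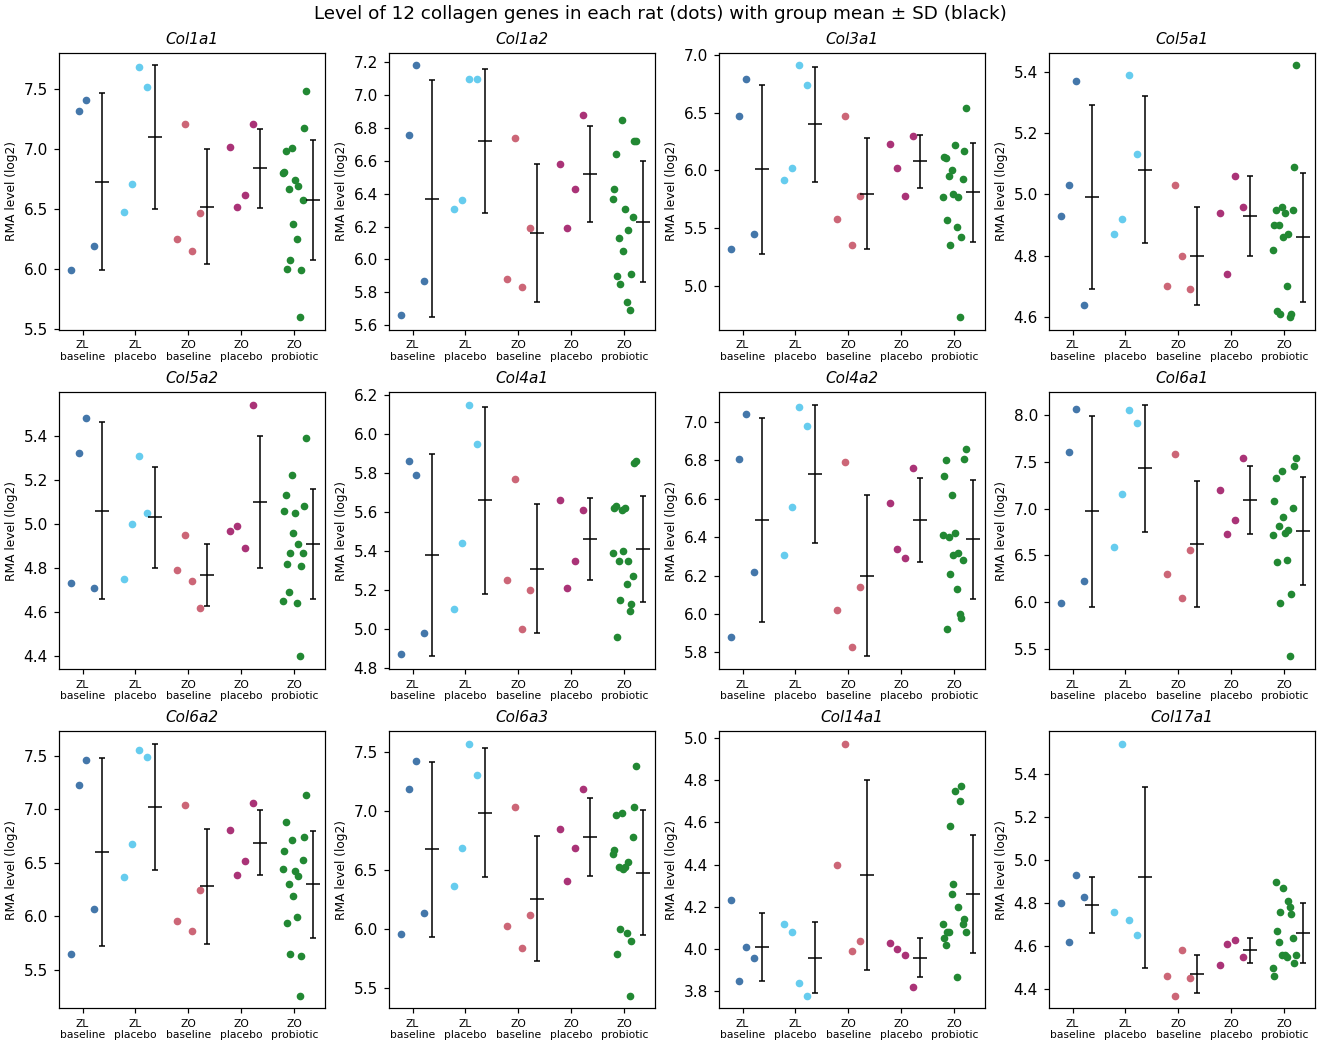
RMA level on the log2 scale (vertical axis) of 12 collagen genes in each rat (dots) by group (horizontal axis), with the group mean ± SD in black. Compared groups overlap in all panels except ZO against ZL for Col17a1, and C2 and C3 are the high rats of the ZL baseline group for the genes of collagens I, III and VI.

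Across the family, 12 of the 40 genes had a spread between rats of the same group that exceeded that of 90% of the 29214 probe sets. These were Col1a1, Col1a2, Col3a1, Col4a1, Col4a2, Col6a1, Col6a2, Col6a3, Col6a4, Col12a1, Col15a1 and Col18a1. The median SD within groups was 0.18 over the collagen genes and 0.16 over all probe sets, so the wide spread was that of these 12 genes. The cartilage collagens Col2a1 and Col11a1 and the anchoring fibril gene Col7a1 had SDs of 0.09, 0.08 and 0.08.

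The first comparison asked what changed as ZO rats became obese over 30 days on placebo. No collagen gene passed the limma test at an adjusted p of 0.05, whereas 1.36% of all probe sets did. At an unadjusted p under 0.05 there was 1 collagen gene of 40 (2.5%), against 12.1% of all probe sets. Col1a1, Col6a1 and Col6a4 had positive estimates whose intervals included 0, Col1a1 by 0.32 on the log2 scale (95% interval -0.40 to 1.04, adjusted p = 0.79), Col6a1 by 0.47 (-0.42 to 1.36, adjusted p = 0.736) and Col6a4 by 0.72 (-0.29 to 1.74, adjusted p = 0.616). The fibrillar genes Col2a1 and Col11a1 and the filament gene Col6a6 had estimates of -0.09, -0.11 and -0.11, and the median over the 11 fibrillar genes was -0.01. The interval of Col6a1 ran from 0.748-fold to 2.56-fold. Without Z2 the Col1a1 and Col6a1 estimates were 0.55 and 0.79, and without Z3 they were 0.20 and 0.27. Over all 40 genes the median difference was 0.05, against -0.02 over all probe sets.

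The gene with an unadjusted p under 0.05 was Col14a1, a collagen that sits on the surface of fibrils. Its level was 4.40, 4.97, 3.99 and 4.04 in ZO baseline rats and 4.03, 4.0, 3.97 and 3.82 in ZO placebo rats, a difference of -0.40 (95% interval -0.77 to -0.02, adjusted p = 0.384). The groups overlapped, and Z1 and Z2 carried the higher baseline level. In probiotic rats the level ran from 3.87 (Z43) through 4.13 to 4.77 (Z51), which was 0.30 above placebo (95% interval 0.00 to 0.60, adjusted p = 0.998). The mean of 7 adipocyte markers ran from 6.81 to 8.09 in ZO baseline, 6.47 to 6.90 in ZO placebo and 6.31 to 8.23 in probiotic rats. The median differences of these markers were -0.43 and 0.48 in the same comparisons. In ZO placebo against baseline they ran from -1.98 to 1.09, and the 1 called by limma, Pck1, rose (1.09, adjusted p = 0.0206). Pck1 and Cidec had high mean levels, at percentiles 97.4 and 90.6 of all probe sets, so this mean may not follow adipocytes alone. Its part in the Col14a1 levels was not tested.

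In ZL rats no collagen gene passed the limma test between placebo and baseline, against 0.911% of all probe sets. There were 2 genes at an unadjusted p under 0.05 (5.0%), Col2a1 and Col4a4, against 16.9% of all probe sets. In 1 collagen gene, Col11a2, the placebo rats (4.38 to 4.61) all lay below the baseline rats (4.61 to 4.96), touching at 2 decimals, and 3.05% of all probe sets did so. Estimates for Col1a1 (0.37, 95% interval -0.35 to 1.09) and Col6a1 (0.45, -0.43 to 1.34) had intervals that included 0. They too moved with single rats, to 0.12 and 0.13 without C1 and to 0.60 and 0.82 without C3. The difference between the 30-day changes of ZO and ZL rats was called for none of the 40 genes, with a smallest adjusted p of 0.741, and for 0.00342% of all probe sets. No collagen gene had an unadjusted p under 0.05 in that difference, against 8.51% of all probe sets.

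Averaged over both genotypes, the 30-day change gave 0 collagen genes past the threshold in limma against 4.02% of all probe sets, and 1 gene (2.5%) at an unadjusted p under 0.05 against 20.1%. This gene was Col2a1, the cartilage collagen, with a change of -0.12 (95% interval -0.22 to -0.03, adjusted p = 0.144). Col6a4 had the highest estimate, 0.67 (95% interval -0.05 to 1.39, adjusted p = 0.284).

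Obese and lean genotypes were compared before and after the placebo period. At baseline no collagen gene passed the limma test, and neither did any other probe set (0%). On placebo no collagen gene passed, against 1.04% of all probe sets. At an unadjusted p under 0.05 there was 1 gene at each time (2.5%), against 11.5% of all probe sets at baseline and 11.4% on placebo. Estimates were below 0 in ZO rats for 30 of the 40 genes at baseline (median -0.13, against 0.01 over all probe sets) and for 32 on placebo (median -0.07, against 0.00), and since these genes moved together between rats they are not independent counts.

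The gene at both times was Col17a1, the transmembrane collagen of hemidesmosomes, which anchor epithelial cells to their basement membrane. Its level was 4.80, 4.62, 4.93 and 4.83 in ZL baseline rats and 4.46, 4.37, 4.58 and 4.45 in ZO baseline rats. On placebo it was 4.76, 5.54, 4.72 and 4.65 in ZL rats and 4.51, 4.61, 4.63 and 4.55 in ZO rats. Among baseline rats and among placebo rats the genotypes did not overlap. In the same direction 1.53% of all probe sets showed this at baseline and 4.19% on placebo. The 16 ZO probiotic rats ran from 4.46 (Z23) through a median of 4.63 to 4.90 (Z25), and this range overlapped both ZL groups. Over all rats the mean level of Col17a1 was 4.67, at percentile 47.7 of all probe sets. ZO rats lay below ZL rats with a log2 difference of -0.33 at baseline (95% interval -0.59 to -0.07, adjusted p = 0.327) and of -0.34 on placebo (-0.60 to -0.08, adjusted p = 0.243). The placebo estimate rested in part on C13 and was -0.13 without it (adjusted p = 0.74).

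A genotype difference averaged over both times, added after these values had been seen, was -0.33 for Col17a1 (95% interval -0.52 to -0.15, adjusted p = 0.0545), a level of 0.793 times that of ZL rats. No collagen gene passed the limma test there, against 1.21% of all probe sets, and 1 (2.5%) had an unadjusted p under 0.05, against 14.5%. Leaving out each rat in turn gave differences between -0.38 and -0.23 and adjusted p between 0.0346 and 0.125, under 0.05 without C2, C11, C15 or C16.

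Probiotic rats were compared with ZO placebo rats to ask what the bacteria changed. No collagen gene passed the limma test, against 0.00342% of all probe sets, and 1 gene (2.5%), Col14a1, had an unadjusted p under 0.05, against 4.12% of all probe sets. The estimates for 4 structural genes were below 0 with intervals that included it: Col1a1 -0.27 (95% interval -0.83 to 0.30), Col3a1 -0.27 (-0.78 to 0.24), Col4a1 -0.05 (-0.42 to 0.31) and Col6a1 -0.33 (-1.03 to 0.37), each with an adjusted p of 0.998. Without Z16 the Col1a1 and Col6a1 estimates were -0.14 and -0.18, and without Z11 that of Col4a1 was 0.02. On the linear scale the interval of Col6a1 ran from 0.49-fold to 1.3-fold.

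Against ZO baseline rats, the probiotic rats again had 0 collagen genes past the limma threshold, where 5.61% of all probe sets were called, and 2 genes (5.0%) at an unadjusted p under 0.05, against 18.1%. These were the minor basement membrane chains Col4a3 and Col4a5. Col4a3 averaged 4.21 ± 0.12 (SD, n = 16) in probiotic rats and 4.43 ± 0.13 (n = 4) at baseline, a difference of -0.22 (adjusted p = 0.112). Col4a5 averaged 3.54 ± 0.13 (n = 16) and 3.73 ± 0.14 (n = 4), a difference of -0.19 (adjusted p = 0.136). The same baseline rats served the placebo comparison, so these results share their control.

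**Figure D2:**
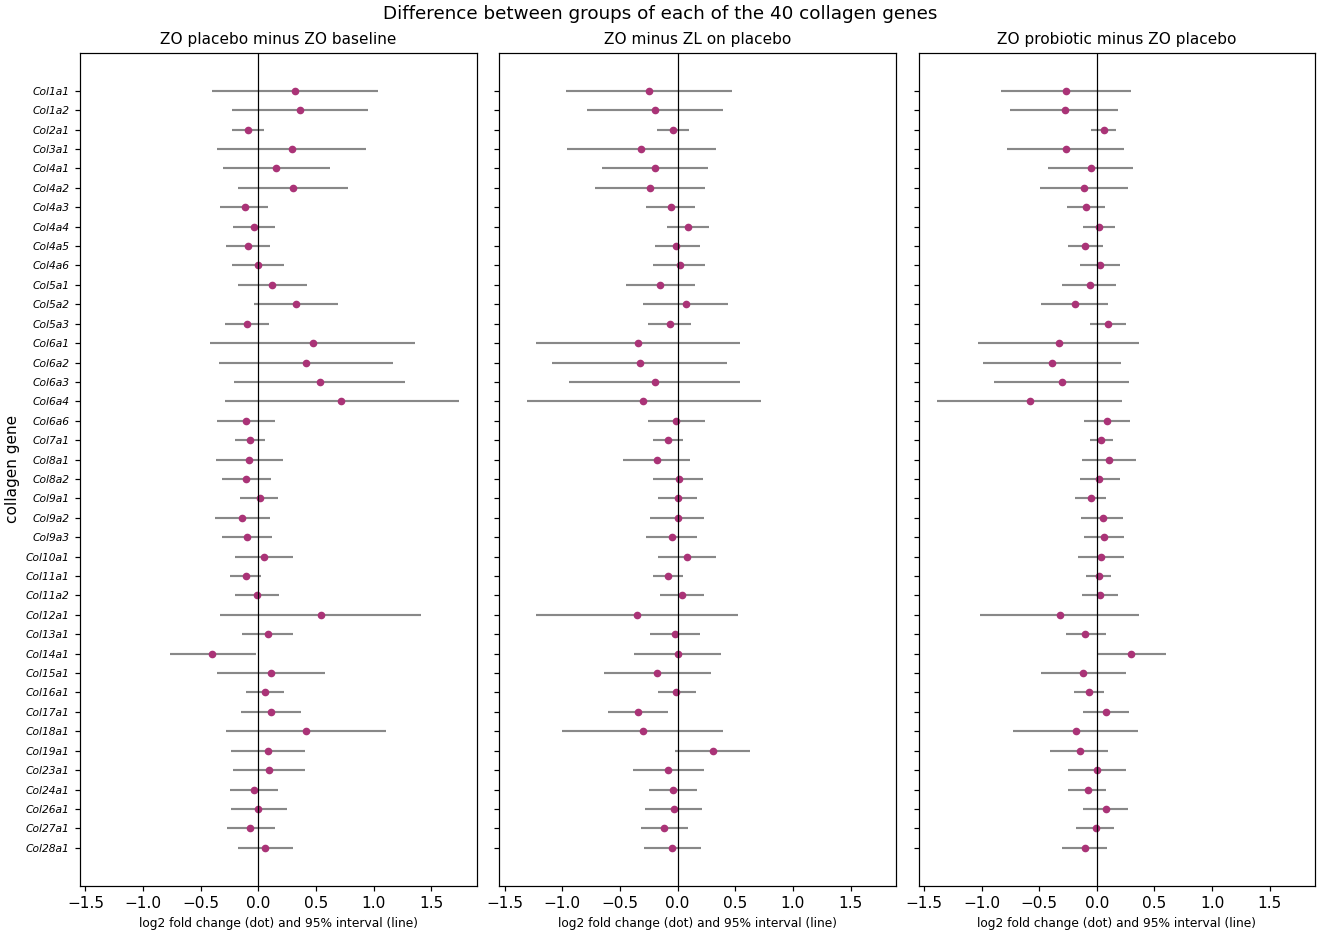
Log2 fold change (horizontal axis, dots) with its 95% interval (lines) for each of the 40 collagen genes (vertical axis) in the comparisons of ZO placebo with ZO baseline, ZO with ZL on placebo, and ZO probiotic with ZO placebo. Intervals are widest for Col6a4, Col6a1 and Col12a1, and no gene passed the adjusted threshold.

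The rats that were high for one structural collagen were high for the others. After the group means were removed, 5 chosen pairs of genes were correlated over the 32 rats, with permutation within groups. Pearson's r was 0.95 for Col1a1 with Col1a2 (Spearman's rho 0.96), 0.95 for Col4a1 with Col4a2 (rho 0.95), 0.98 for Col6a1 with Col6a2 (rho 0.97) and 0.95 for Col1a1 with Col3a1 (rho 0.95). For these 4 pairs the permutation p of r and of rho was 1e-05, the smallest that 100000 permutations can give, and 1.25e-05 after Benjamini-Hochberg adjustment over the 5 relations. Col5a1 with Col5a2 had r = 0.74 (permutation p = 2e-05, adjusted p = 2e-05) and rho = 0.71 (permutation p = 5e-05, adjusted p = 5e-05). Without the 2 rats farthest from the median, r was 0.96, 0.95, 0.98, 0.94 and 0.64 in the order Col1a1 with Col1a2, Col4a1 with Col4a2, Col6a1 with Col6a2, Col1a1 with Col3a1 and Col5a1 with Col5a2.

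Genes that lie next to each other in the genome did not all share this pattern. Within 200 kb there were 7 pairs of neighbouring collagen genes, among them Col4a1 with Col4a2 and Col6a1 with Col6a2. Col6a4 and Col6a6 had r = -0.11 (permutation p = 0.555, adjusted p = 0.555) and rho = -0.03 (permutation p = 0.88, adjusted p = 0.88). For this pair r was -0.41 in the 16 probiotic rats and 0.37 in the 16 other rats. Col9a1 and Col19a1 had r = -0.24 (permutation p = 0.177, adjusted p = 0.248) and rho = -0.22 (permutation p = 0.252, adjusted p = 0.294). Col3a1 and Col5a2, 38.2 kb apart on chromosome 9, had r = 0.83 (permutation p = 1e-05, adjusted p = 2.33e-05) and rho = 0.81 (permutation p = 2e-05, adjusted p = 4.67e-05), and r = 0.77 without the 2 farthest rats. Col4a3 and Col4a4, 412 bases apart, had r = 0.29 (permutation p = 0.176, adjusted p = 0.248) and rho = 0.30 (permutation p = 0.125, adjusted p = 0.218), with r = 0.30 without the 2 farthest rats. Col4a5 and Col4a6, 1263 bases apart on chromosome X, had r = 0.17 (permutation p = 0.409, adjusted p = 0.478) and rho = 0.23 (permutation p = 0.244, adjusted p = 0.294), with r = 0.00 without the 2 farthest rats. So Col4a1 and Col4a2 moved together, while for these other pairs of collagen IV chains a relation was not detectable over the 32 rats. In the 16 probiotic rats r was -0.04 for Col4a3 with Col4a4 and -0.15 for Col4a5 with Col4a6. In the 16 other rats it was 0.57 and 0.48. The genes of these pairs had low mean levels, from 3.60 (Col4a5) to 4.29 (Col4a3). Their SDs within groups were 0.12 to 0.15, against 0.34 for Col4a1 and 0.35 for Col4a2. Whether level or layout in the genome had a part was not tested.

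Markers of several cell types of the tissue under the epithelium moved with Col1a1, while for others no relation was detectable. The mean of 10 endothelial markers, genes of the cells that line vessels such as Cdh5, Tie1 and Plvap, ran from 4.77 to 5.81 in ZL baseline, 5.20 to 5.93 in ZL placebo, 4.66 to 5.60 in ZO baseline, 5.18 to 5.74 in ZO placebo and 4.68 to 5.89 in ZO probiotic rats. Col1a1 was set against this mean, 11 other marker lists and the array median, 13 relations in all, with group means removed and permutation within groups. With the endothelial mean r was 0.92 (permutation p = 1e-05, adjusted p = 3.25e-05) and rho 0.93 (permutation p = 1e-05, adjusted p = 3.25e-05). With 11 fibroblast markers that hold no collagen gene r was 0.92 and rho 0.94, and with 7 pericyte markers r was 0.89 and rho 0.89, both at a permutation p of 1e-05 (adjusted p = 3.25e-05). Without the 2 farthest rats r was 0.91, 0.91 and 0.88 for these lists. With 10 macrophage markers r was 0.88 and rho 0.86 (permutation p = 1e-05 and adjusted p = 3.25e-05 for both), and r was 0.85 without the 2 farthest rats. With 11 smooth muscle markers r was 0.74 (permutation p = 0.00014, adjusted p = 0.000364) and rho 0.78 (permutation p = 8e-05, adjusted p = 0.000208), and r was 0.91 without C3 and Z51 but 0.52 in the 16 probiotic rats alone.

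With 6 mesothelium markers Col1a1 had r = -0.45 (permutation p = 0.00753, adjusted p = 0.0163) and rho = -0.42 (permutation p = 0.0124, adjusted p = 0.0268), with r = -0.50 without the 2 farthest rats. Of these markers Krt19 had a mean level of 12.28, at percentile 99.4 of all probe sets. The others were low, between 3.60 (Wt1) and 4.10 (Upk3b), so this r cannot be read as a relation with mesothelium content. With 8 enterocyte markers Col1a1 had r = -0.04 (permutation p = 0.844, adjusted p = 0.844) and rho = 0.01 (permutation p = 0.972, adjusted p = 0.972), and with the array median r = 0.47 (permutation p = 0.0114, adjusted p = 0.0211) and rho = 0.44 (permutation p = 0.024, adjusted p = 0.0446). Without the 2 farthest rats these r were -0.07 and 0.51. For the remaining lists r was -0.21 (enteric glia), -0.17 (adipocyte), 0.26 (cartilage and bone), -0.09 (goblet cell) and 0.09 (cell division). In that order the permutation p of r was 0.27, 0.352, 0.152, 0.623 and 0.685, with an adjusted p of 0.246 or more. Their rho was -0.11, -0.11, 0.23, -0.09 and -0.05, with an adjusted permutation p of 0.357 or more. The enterocyte markers had mean levels from 11.60 (Apoa4) to 13.32 (Fabp2), where the highest value of the series was 13.52. Whether levels so near the top of the scale left little room to show differences in epithelial content was not tested. The goblet cell markers had mean levels from 9.40 (Spink4) to 12.99 (Zg16). The part of the cell content of the samples in the collagen levels was not tested.

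Over the whole family, each of the 40 genes was correlated with the endothelial marker mean. In 14 genes r lay between 0.80 and 0.97: Col1a1, Col1a2, Col3a1, Col4a1, Col4a2, Col5a1, Col5a2, Col6a1, Col6a2, Col6a3, Col6a4, Col12a1, Col15a1 and Col18a1. For each of them the permutation p of r was 1e-05 and the adjusted p over the 40 relations 2.86e-05, rho lay between 0.84 and 0.97, and r stayed at 0.80 or above without Z35 and Z46, the farthest rats. The other 26 genes had r between -0.47 and 0.63, with a gap to the 14 that no gene filled. Some of the 26 had weaker relations, with an adjusted permutation p of r under 0.05. These were Col4a5 (r = 0.63, adjusted p = 0.00157), Col24a1 (0.58, 0.00545), Col23a1 (0.47, 0.0303), Col13a1 (0.45, 0.0345), Col4a6 (0.43, 0.0303), Col7a1 (-0.47, 0.0335) and Col11a2 (-0.47, 0.0378). Col14a1 (r = -0.18, permutation p = 0.359, adjusted p = 0.449) and Col17a1 (r = -0.28, permutation p = 0.133, adjusted p = 0.213) were also among the 26. All 14 genes lay above the median probe set in mean level, and the 24 collagen genes below it were all among the 26. Whether level had a part in this split was not tested.

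**Figure D3:**
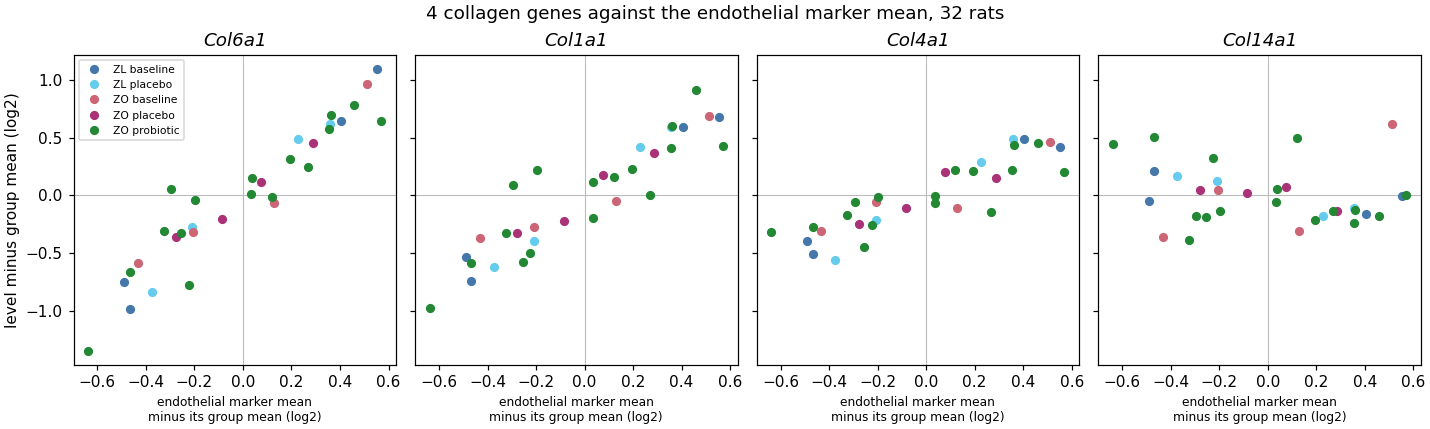
Level of Col6a1, Col1a1, Col4a1 and Col14a1 in each of 32 rats minus the mean of its group (vertical axis, log2) against the endothelial marker mean minus its group mean (horizontal axis, log2), coloured by group. The first 3 genes rise with the marker mean (r = 0.95, 0.92 and 0.88) and Col14a1 does not (r = -0.18).

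**Figure D4:**
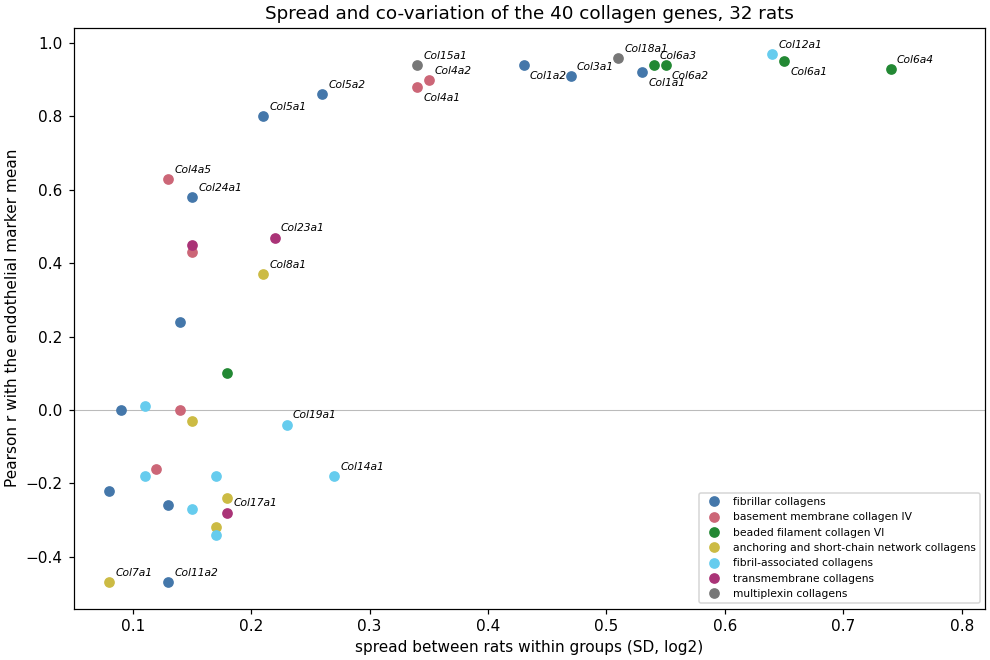
Pearson's r with the endothelial marker mean over 32 rats (vertical axis) against the SD between rats within groups (horizontal axis, log2) for the 40 collagen genes, coloured by class. The 14 genes with r of 0.80 or more stand apart from the other 26, and they include all 12 genes with an SD above 0.30. The 24 collagen genes with a mean level below the median probe set are all among the 26.

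With the endothelial marker mean as a covariate, a setting chosen after the data were seen, the estimates of these 14 genes changed. The 14 had been set apart by their r with this same mean in these rats. Such a change and smaller standard errors follow from that choice and are no separate result. For the 30-day change averaged over genotypes, the median estimate of the 14 genes was 0.36 without the covariate (14 positive) and -0.04 with it (2 positive). The median standard error was 0.23 without it and 0.08 with it. Col15a1, a collagen of vascular and muscular basement membranes, was then called at -0.23 (95% interval -0.36 to -0.09, adjusted p = 0.0494), where the estimate without the covariate was 0.06 (adjusted p = 0.879) and with the smooth muscle marker mean in its place -0.09 (adjusted p = 0.749). The endothelial markers had a median change of 0.33 in that comparison, and 1 of the 10, Tek, rose (0.76, adjusted p = 0.0493). Col15a1 was the 1 collagen gene of 40 called, against 3.03% of all probe sets. Col4a5 had a low mean level of 3.60 and an r of 0.63 with this covariate. Between probiotic and ZO baseline rats it was called at -0.24 (-0.37 to -0.11, adjusted p = 0.0172). This was again 1 of 40, against 6.03% of all probe sets. In the genotype difference averaged over times Col17a1 was called at -0.35 (-0.53 to -0.17, adjusted p = 0.0366), against 1.23% of all probe sets.

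The genes that make, process, bind and degrade collagen were taken from 8 lists with 115 genes measured. In ZO rats on placebo against baseline, 1 of them fell and none rose: Itga2, a collagen-binding integrin chain, with a log2 difference of -0.63 (adjusted p = 0.0363). This was 0.87% of the 115, against 1.36% of all probe sets. None of the 115 was called in ZL rats over the same period, against 0.911%. Averaged over genotypes 2 rose (1.74%, against 4.02%), Nid2, a nidogen of basement membranes (1.05, adjusted p = 0.00699), and P4hb, a subunit of prolyl 4-hydroxylase (0.27, adjusted p = 0.014).

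On placebo 1 of the 115 (0.87%, against 1.04% of all probe sets) was lower in ZO than in ZL rats, the gelatinase gene Mmp9 (-1.17, adjusted p = 0.00179), and none was called between genotypes at baseline or between probiotic and placebo rats. Between probiotic and ZO baseline rats 4 rose and 4 fell, 6.96% of the 115 against 5.61% of all probe sets. Those that rose were Nid2 (0.93, adjusted p = 0.0228), Itga1, which pairs with the same β chain to bind collagen (0.55, adjusted p = 0.0337), Fbln5, an elastic fibre protein (0.41, adjusted p = 0.000963), and P4hb (0.30, adjusted p = 0.00956). Those that fell were Timp1, an inhibitor of matrix proteases (-1.27, adjusted p = 0.00262), Mmp9 (-0.63, adjusted p = 0.0176), Prelp, a proteoglycan of fibrils (-0.63, adjusted p = 0.0478), and Itga2 (-0.46, adjusted p = 0.0255). The median difference over the 115 genes was 0.04, against 0.00 over all probe sets.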

How the data were processed

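The deposited table holds 1 value for each of 29214 probe sets on 32 arrays. The authors made these values with Robust Multichip Average normalization, a log2 intensity (the processing notes name Affymetrix Expression Console), but the deposited values had lost their decimal point and are therefore a score. The point was put back so that values starting with 10 to 13 had 2 digits before it and all others 1. No collagen value reached 10, and none of the 1280 moved when the point was placed by the nearest decade. The tests had been planned for log2 values and were run on the restored values. A model of 5 group means was fitted with limma 3.58.1 (R 4.3.3) and moderated statistics, with Benjamini-Hochberg adjustment over all probe sets at 0.05, and was tested on simulated data. Correlations used 100000 permutations within groups (numpy 2.4.6). Promoters were read from RefSeq (GRCr8). All collagen genes were accounted for, with values for those past the threshold and for a fixed list of chains of collagens I, III, IV, V and VI. Of other lists, up to 4 called genes were named for each comparison. The members and lists were chosen with earlier results of these data known. The number of arrays limits the precision. Alternatives were normalization, filters, probe set choice, array weights, left-out rats and covariates.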

Additional observations from a re-analysis of the deposited data

Results flagged for a closer look

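In groups of 4 rats, the gap of the highest or lowest rat to its nearest neighbour was compared with the whole range for the 40 collagen genes, 160 gene and group combinations in all. There were 5 (3.12%) with a gap above Dixon's 95% limit, and chance gives about 5%. Col17a1 was 5.54 in ZL placebo rat C13, where the other rats of the group lay between 4.65 and 4.76. Col5a2 was 5.54 in ZO placebo rat Z16, against 4.89 to 4.99. Col8a2 was 4.09 in ZL baseline rat C2, against 3.86 to 3.89. Col26a1 was 2.91 in ZL baseline rat C3, against 3.32 to 3.38, and 2.89 in ZL placebo rat C16, against 3.13 to 3.15.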

How the results depend on the processing

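The count of collagen genes past the threshold stayed 0 in all 139 planned fits over the 8 planned comparisons, among them other normalizations and filters and, in the groups of 4, each rat left out in turn. The 16 probiotic rats were not left out singly. With the shared rat numbers as a replicate block, which the genotype comparisons allowed, the count was 0 as well. Deviations of rats with the same number correlated between -0.037 and 0.232. Rats with different numbers were not set beside them, so a pairing by number was not tested. Of 33 added fits, 25 gave 0. With the endothelial marker mean as a covariate the count was 1 in the 30-day change averaged over genotypes, where the Col15a1 difference turned from 0.06 to -0.23, 1 between probiotic and ZO baseline rats (1 with the smooth muscle marker mean too) and 1 in the genotype difference averaged over times. Without the covariate, the count in this genotype difference ran from 0 to 1 with each rat left out in turn. The fits with a covariate were not repeated with rats left out. The causes were not tested. With 4 rats in most groups precision was limited, and the interval of Col6a4 between ZO placebo and baseline reached 3.34-fold.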
